A study of Mus musculus with 30 samples.

Results

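The stool bacteria of female mice lacking Gpr15l (KO) were compared between the end of co-housing and the end of re-separation. The 10 libraries, of 30 in the series, were chosen by their labels: 5 taken after co-housing (libraries 11 to 15) and 5 taken after the re-separation period (libraries 21 to 25). Gpr15l encodes a peptide secreted by epithelia of the gut and skin that binds the lymphocyte receptor GPR15. KO and wild-type (WT) female mice entered cages of mixed genotype at weaning, at about 4 weeks of age, with 2 to 7 mice in a cage. They stayed in them for 4 to 5 weeks and were then re-separated for 6 weeks. Neither background strain, cage nor litter is labelled, and no mouse can be traced across times, so a p-value here speaks of spread among these samples, which may be partly technical. The comparison asks which bacteria of KO stool differ once KO mice no longer share cages with WT mice. The 5 WT libraries after co-housing (16 to 20) and the 5 after re-separation (26 to 30) give the change in the other genotype, and the 5 KO libraries at weaning (1 to 5) give the level before the cages were mixed. The genotype rests on the labels, since bacterial reads hold no mouse gene.

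Mice eat faeces, so cage mates exchange gut bacteria, and a shared cage tends to bring their communities together. The mouse colon holds mostly Bacteroidales, Gram-negative anaerobes that break down plant and host polysaccharides, and Clostridia such as Lachnospiraceae and Oscillospiraceae, many of which ferment the products to short-chain fatty acids. Mucus residents such as Helicobacter and Mucispirillum and wall-less Mycoplasma live closer to the epithelium. Each value below is a share of a library's bacterial reads from 16S rRNA gene region V4, so shares are parts of a whole and say nothing of absolute numbers of cells.

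The KO libraries held 16193 to 41242 reads after co-housing and 53078 to 63628 after re-separation. The libraries form separate sets by their sequence variants: 485 variants were read only at weaning or co-housing (20 libraries), 468 only at re-separation (10 libraries) and 0 in both. The time of sampling and the library set therefore cannot be told apart. Variants were summed by genus and family name. Of 89 genera with reads in KO stool at either time, 61 had reads at both times, and in the library where their share was lowest they held 99.6% of the reads, as rounded. Genera common in reagents stood at 0.182% ± 0.146 (SD, n = 5) after co-housing and had 0 reads in the 5 re-separated libraries. Mitochondrial reads were left out of the bacterial totals and made up 0.435% ± 0.276 and 0.0924% ± 0.0791 of all reads. Chloroplast and skin genera had 0 reads in the 30 libraries. The part of depth, reagent genera and mitochondrial reads in the results was not tested.

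After re-separation, KO stool held more Bacteroidota and less Firmicutes than after co-housing. Bacteroidota rose from 28.0% ± 13.3 to 59.5% ± 14.9 of bacterial reads (SD, n = 5 per group), and Firmicutes, the phylum that here holds Clostridia and Mycoplasma, fell from 53.1% ± 11.5 to 22.3% ± 12.3. The lowest re-separated library held 46.7% Bacteroidota and the highest co-housed library 45.6%, so the groups did not overlap but lay close at their edges. Both changes gave p = 0.00794 in exact two-sided permutation tests over 252 orderings, the smallest possible, and an adjusted p of 0.0357 over 9 phyla. Both lost the call when any 1 of 8 libraries was left out and kept it without library 11 or library 14, where the adjusted p was 0.0238 and 0.0357. Without the other libraries it was 0.0714 in each case. Firmicutes did not overlap either, at 39.4% in the lowest co-housed and 35.4% in the highest re-separated library. Both phyla therefore stayed apart with any library left out. With a library left out the exact test can give few p-values, so a lost call does not show dependence on that library. Deferribacterota, Proteobacteria and the other 5 phyla did not pass, with adjusted p of 0.0952 to 0.746.

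**Figure D1:**
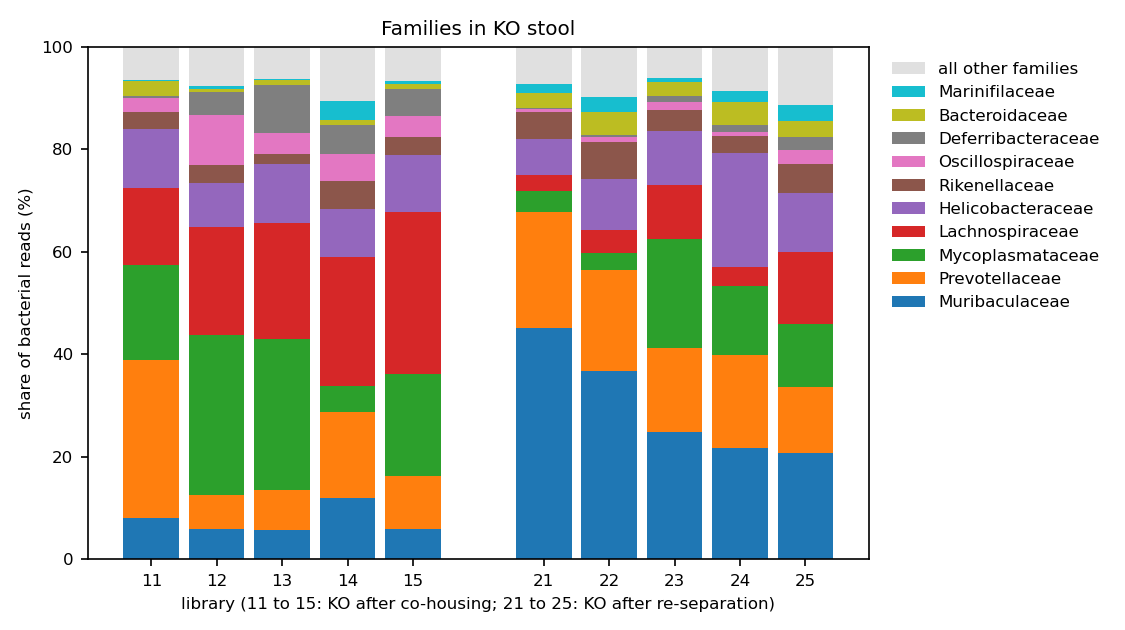
Stacked bars of the share of bacterial reads (%) held by the 10 leading families in each KO library, with 5 libraries after co-housing on the left and 5 after re-separation on the right. Muribaculaceae fill 5.72% to 11.9% of the co-housed and 20.8% to 45.1% of the re-separated bars, and Lachnospiraceae 14.9% to 31.7% and 3.24% to 14.2%.

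Over whole communities, time and library set together accounted for 50.3% of the variation in Bray-Curtis distance among the 10 KO libraries at genus level (R2). The exact permutational test over 126 splits, whose mean R2 was 11.1%, gave p = 0.00794, the smallest possible (adjusted p = 0.0159 over both genotypes). The mean distance, on a scale from 0 (identical shares) to 1 (no genus shared), was 0.449 between a co-housed and a re-separated library. It was 0.307 among the co-housed and 0.270 among the re-separated libraries. Library 11 was the only co-housed library nearer, on average, to the re-separated libraries (0.368) than to the other co-housed libraries (0.377). It held the most Prevotellaceae of the KO libraries (30.9%) and the least Mucispirillum of its group. Among the re-separated libraries, 21 and 22 lay farthest from the co-housed group, at 0.569 and 0.535, and library 23 nearest, at 0.336.

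The weaning libraries belong to the library set of the co-housed ones. KO libraries at weaning lay at a mean distance of 0.504 from the co-housed and 0.387 from the re-separated KO libraries. In KO stool, Bacteroidales held 61.1% ± 18.8 of reads at weaning (SD, n = 5), 28.0% ± 13.3 when co-housing ended and 59.5% ± 14.9 once re-separated. Lachnospirales held 7.12% ± 5.30, 23.1% ± 6.09 and 7.23% ± 4.92 in the same order. WT means moved in the same directions, so the course was not particular to KO stool. In WT stool Bacteroidales held 76.3% ± 6.08, 36.9% ± 16.7 and 56.6% ± 12.0, and Lachnospirales 2.88% ± 1.31, 22.9% ± 11.5 and 10.6% ± 5.31. The 3 times are set side by side and were not tested here against each other beyond the step from co-housing to re-separation.

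**Figure D2:**
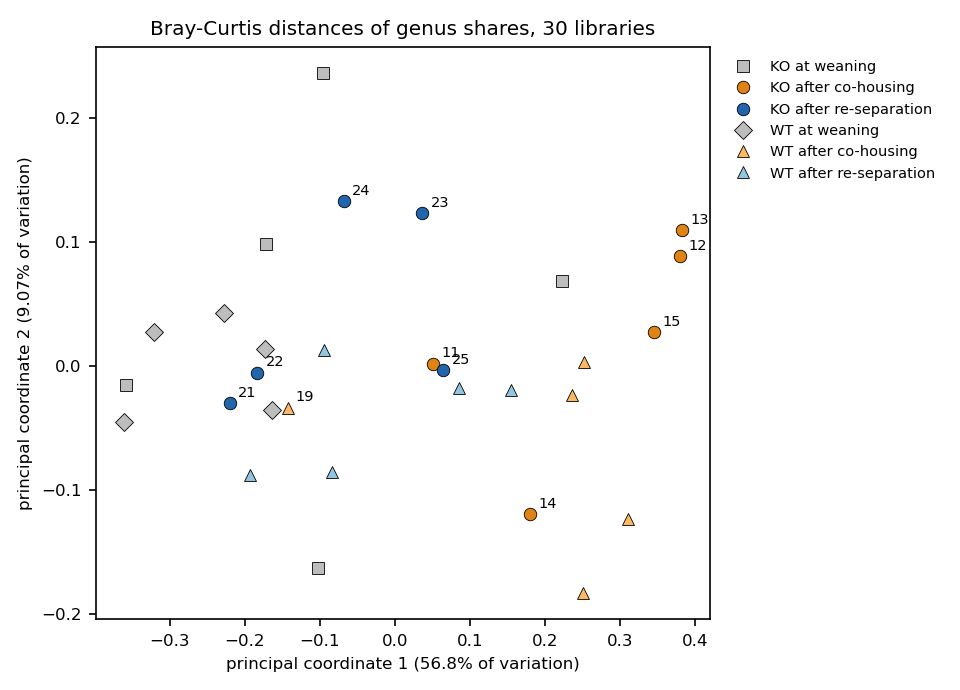
Principal coordinates of Bray-Curtis distances between the genus shares of 30 libraries; each point is a library, colour and shape give genotype and time, and numbers mark the 10 KO libraries of this comparison and WT library 19. Axis 1 holds 56.8% and axis 2 9.07% of the variation; co-housed KO libraries 12, 13 and 15 sit at the right edge, and co-housed libraries 11 (KO) and 19 (WT) lie among re-separated or weaning libraries.

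Counts of 71 genera with enough reads were tested with edgeR's quasi-likelihood test, and changes with a Benjamini-Hochberg adjusted p under 0.05 are called here. After re-separation 10 genera were higher in KO stool (14.1% of those tested) and 4 lower (5.63%), or 19.7% in all. At an unadjusted p under 0.05 there were 24 in both directions (33.8%). Of the 14 called genera, 8 had reads at both times, 4 had 0 reads in all 5 co-housed libraries and 2 had 0 reads in all 5 re-separated libraries. The split of higher against lower calls moved with the scaling: 5 against 3 with library size only, 10 against 2 with TMM and 8 against 1 with DESeq2 size factors. Log2 fold changes are given with TMMwsp scaling, under which the median genus changed by 0.00. With library size only, values were lower by a median of 0.35. A genus with equal shares therefore has a value above 0. Alistipes, a bile-tolerant member of the Rikenellaceae, held 2.91% ± 0.922 and 2.94% ± 0.687, which the fit gave as 0.58 ± 0.62 on the log2 scale (SE; edgeR adjusted p = 0.490).

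Part of the Bacteroidales passed the test. With TMMwsp scaling, each of the 11 genera tested had a log2 fold change above 0, against 35 of 71 over all genera. Of these 11 genera, 5 were called higher and none lower, where 10 of all 71 (14.1%) were called higher and 4 (5.63%) lower. Their median log2 fold change was 2.30, where that of all 71 genera was 0.00, and it was 1.52 with library size only, 2.43 with TMM and 2.07 with DESeq2 size factors.

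Muribaculaceae without a genus name, polysaccharide degraders that dominate many mouse colons, carried most of the rise. They held 7.89%, 5.71%, 5.54%, 11.5% and 5.57% of reads in co-housed libraries 11 to 15 and 43.6%, 35.7%, 23.8%, 20.7% and 19.9% in re-separated libraries 21 to 25. Every re-separated library lay above every co-housed library. Shares of 5 tested genera (7.04%) were higher in each re-separated library without overlap, and those of 4 (5.63%) lower. The mean share rose 3.96-fold, from 7.25% ± 2.59 to 28.7% ± 10.4, a fitted log2 change of 2.56 ± 0.62 (SE; edgeR adjusted p = 0.00439). KO stool at weaning held 20.1%, with libraries from 8.66% to 39.1%. The reads came from many variants, 39 after co-housing and 58 after re-separation, and the leading variant made up 11.7% and 12.8% of the group's reads. Muribaculum, a named genus of the same family with a single variant at each time, held 0.168% to 0.386% in the co-housed and 0.831% to 1.48% in the re-separated libraries. Its groups did not overlap either (log2 fold change 2.73 ± 0.85; edgeR adjusted p = 0.0244), and the call was lost with library size only and without library 12, 13 or 21, where the adjusted p was at most 0.0621.

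Parabacteroides, a saccharolytic genus of the Tannerellaceae, held 0.0942%, 0.149%, 0.119%, 0.0580% and 0.0227% in libraries 11 to 15 and 1.25%, 1.06%, 0.721%, 0.404% and 0.939% in libraries 21 to 25. The groups were well apart, with a 9.86-fold higher mean after re-separation (log2 fold change 3.76 ± 1.02 (SE); edgeR adjusted p = 0.0125). The species name Parabacteroides distasonis, looked at after its values were seen, had 0 reads in all weaning and co-housing libraries of both genotypes. It held 0.434% ± 0.219 in 5 of 5 KO and 0.601% ± 0.419 in 5 of 5 WT re-separated libraries. The Parabacteroides reads of co-housed KO stool came from 2 variants and those of re-separated stool from 5.

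The Rikenellaceae RC9 gut group, uncultured relatives of Alistipes, held 0.0589%, 0%, 0.0656%, 0.396% and 0.360% after co-housing, against 0.645%, 2.50%, 0.938%, 0.818% and 1.87% after re-separation. No re-separated library was as low as the highest co-housed one. The fitted change was 3.32 ± 0.97 on the log2 scale (SE; edgeR adjusted p = 0.0171). In contrast with most called Bacteroidales, it was scarce at weaning, at 0.0349%, with reads in 3 of 5 libraries. Bacteroides, which uses both dietary and mucin glycans, held 2.97% in library 11, 0.578% to 1.02% in libraries 12 to 15 and 2.63% to 4.58% in the re-separated libraries. Library 11 alone overlapped the re-separated range. The call stood at the threshold (log2 fold change 1.96 ± 0.72; edgeR adjusted p = 0.0499) and was lost in 11 of 21 alternatives, among them leaving out library 12, 13, 14, 15, 21, 22 or 24 (adjusted p up to 0.109). Without library 11 the co-housed mean was 0.885% and the log2 fold change 2.39 (edgeR adjusted p = 0.0263). Among Bacteroides species names, also looked at after their values were seen, Bacteroides sartorii held 0.0777% ± 0.0546 after co-housing and 0.768% ± 0.574 after re-separation. Bacteroides acidifaciens held 0.673% ± 0.261 and 1.10% ± 1.11, with 0 reads in libraries 22 and 23.

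The other tested Bacteroidales did not pass. Prevotellaceae UCG-001, an uncultured group of the Prevotellaceae and the most abundant genus after unnamed Muribaculaceae by the mean over all 10 KO libraries, held 29.1%, 6.33%, 7.76%, 16.6% and 10.5% after co-housing, against 20.0%, 17.6%, 16.2%, 17.3% and 12.3% after re-separation. The co-housed libraries spanned the whole re-separated range, and the log2 fold change was 0.85 ± 0.52 (SE; edgeR adjusted p = 0.245). A single variant held 98.4% and 96.7% of its reads. Odoribacter, a butyrate-forming member of the Marinifilaceae, held 0.122% to 3.70% and 0.751% to 3.15%. Library 14, at 3.70%, was the highest of all. Without it the log2 fold change went from 1.54 (edgeR adjusted p = 0.143) to 2.94 (adjusted p = 0.0148). Alloprevotella held 1.73% in library 11 and 0.0357% to 0.317% in the other co-housed libraries, against 0.240% to 2.69% after re-separation. Its log2 fold change was 2.34 with all libraries (edgeR adjusted p = 0.0851) and 4.06 without library 11 (adjusted p = 0.0108). Rikenella held 0.475% ± 0.259 and 0.806% ± 0.566 (SD, n = 5).

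**Figure D3:**
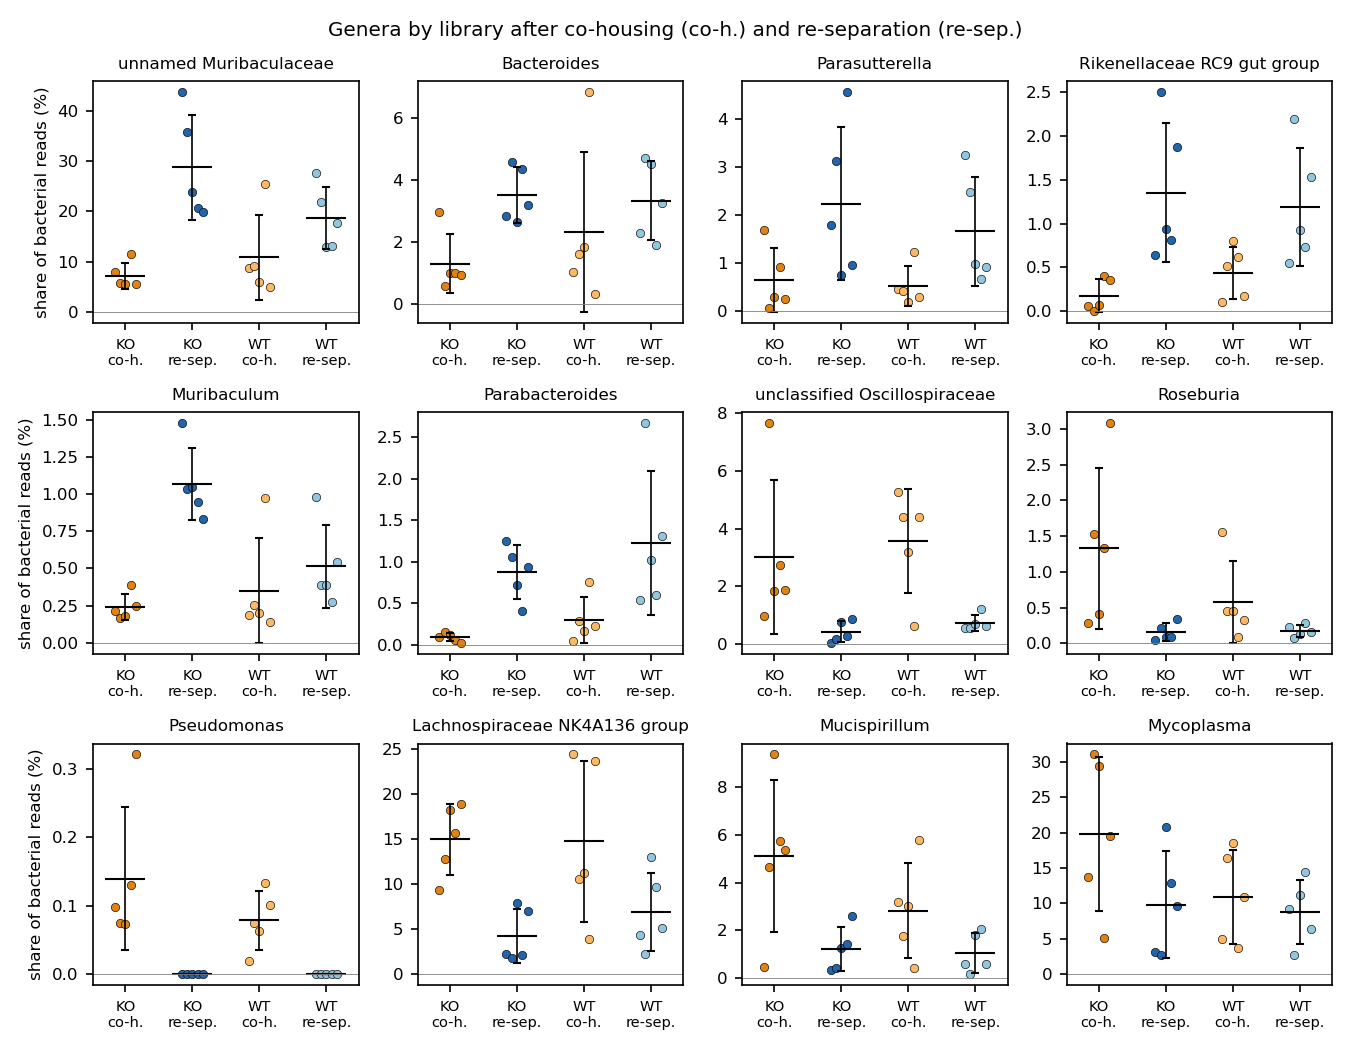
Share of bacterial reads (%) of 12 genera in each library after co-housing and after re-separation, in KO and WT stool; points are libraries, horizontal lines group means and bars SD (n = 5), and each panel has its own linear axis. Unnamed Muribaculaceae, Rikenellaceae RC9 gut group, Muribaculum and Parabacteroides separate the KO groups completely, with the re-separated libraries higher. Unclassified Oscillospiraceae, Lachnospiraceae NK4A136 group and Pseudomonas also separate them completely, with the re-separated libraries lower. A single co-housed WT library (19) reaches 25.5% unnamed Muribaculaceae.

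At family level, 6 of 35 families were called higher after re-separation (17.1%) and 1 lower (2.86%), with 14 at an unadjusted p under 0.05 (40%). Shares did not overlap for 3 families higher (8.57%) and 3 lower (8.57%) in KO stool, and for 3 in either direction in WT stool (8.57%). Muribaculaceae rose from 7.49% ± 2.67 to 29.8% ± 10.7 (2.71 ± 0.58 on the log2 scale; edgeR adjusted p = 0.00109). Tannerellaceae, the family of Parabacteroides, rose from 0.0986% ± 0.0551 to 0.915% ± 0.328 (3.82 ± 1.12; edgeR adjusted p = 0.0138). Marinifilaceae, which hold Odoribacter, were called at 1.92 ± 0.71 (edgeR adjusted p = 0.0483) and lost the call in 16 of 21 alternatives, among them leaving out any co-housed library but 14 and any re-separated library but 23. The other 3 families called higher were unclassified Rhodospirillales, Akkermansiaceae and Eggerthellaceae, each with 0 reads in the co-housed libraries. Eggerthellaceae, Actinobacteria known to convert plant polyphenols and steroids, reached only 0.00477% to 0.0210% after re-separation, and their mean lay under the limit that a count of 0 allows in the co-housed libraries. The calls of Akkermansiaceae and Eggerthellaceae were lost without library 12, 13, 14, 15, 21 or 24, and that of Akkermansiaceae also without 23 or 25 (adjusted p up to 0.0990 for both). Without library 25 Eggerthellaceae were not among the families tested, and their call was kept only without library 11, 22 or 23. Pseudomonadaceae was the family called lower.

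Few Clostridia passed the test. Over all 71 genera, 35 had a log2 fold change below 0, 10 (14.1%) were called higher and 4 (5.63%) lower, and the counts below are near those called shares or rest on 1 or 2 genera. Of 16 Lachnospirales genera tested, 14 had a log2 fold change below 0, with 1 called higher and 1 lower, and their median was -0.94. Of 14 Oscillospirales, 8 were below 0, with 1 called in each direction and a median of -0.88. The list of butyrate-forming Clostridia was drawn up by name, shares genera with these orders and takes in any genus name starting with [Eubacterium]. Of its 8 genera tested, 6 were below 0, with 2 called lower and a median of -1.37. The 1 called higher was the [Eubacterium] siraeum group, which is on the list by its name only and kept its call in 21 of 21 alternatives. Of the 2 called lower, the [Eubacterium] nodatum group is also listed by its name only and kept its call in 4 of 19. Roseburia, the other, kept its call in 8 of 21. These medians kept their sign under the 3 other scalings, and were nearest to 0 with DESeq2 size factors (-0.61, -0.53 and -0.96).

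Lachnospiraceae, fibre fermenters that make butyrate and acetate, held 14.9%, 21.1%, 22.7%, 25.0% and 31.7% in libraries 11 to 15 and 3.24%, 4.41%, 10.6%, 3.69% and 14.2% in libraries 21 to 25. The groups did not overlap, and the mean share was 3.19 times higher after co-housing. The family did not pass in the fit with TMMwsp scaling (log2 fold change -1.08 ± 0.53 (SE); edgeR adjusted p = 0.117), and it passed in 6 of 11 processing alternatives, among them library size only and DESeq2. The Lachnospiraceae NK4A136 group, its most abundant genus, held 9.33%, 12.8%, 18.2%, 15.7% and 18.8% against 2.22%, 1.81%, 7.93%, 2.09% and 6.96%. It too was lower in every re-separated library, without passing (log2 fold change -1.56 ± 0.74; edgeR adjusted p = 0.132). It passed when only the KO groups (adjusted p = 0.0368) or only the co-housing and re-separation groups (0.0329) entered the fit. Its reads came from 26 variants after co-housing and 31 after re-separation, with 16.1% and 20.5% in the leading variant. At weaning it held 1.97% of KO reads.

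Roseburia, a motile butyrate producer, held 0.291%, 1.53%, 0.406%, 1.34% and 3.07% after co-housing, against 0.0445%, 0.211%, 0.0883%, 0.0912% and 0.346% after re-separation. Library 11 after co-housing and library 25 after re-separation overlapped. The mean was 8.50 times higher after co-housing, and the call stood at the threshold (log2 fold change -2.76 ± 1.03; edgeR adjusted p = 0.0499). Without any library but 11 the call was lost, with an adjusted p of up to 0.150 without library 15. Blautia, an acetate former, held 0.427% ± 0.340 and 0.0729% ± 0.0566, and Butyricicoccus 0.145% ± 0.0502 and 0.0254% ± 0.0177 (SD, n = 5). Neither passed (edgeR adjusted p = 0.143 and 0.245), although each Butyricicoccus share after re-separation lay below the lowest co-housed share. Unclassified Lachnospiraceae held 2.47% to 6.03% and 0.649% to 4.08%.

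Oscillospiraceae without a genus name, anaerobes of the order Oscillospirales, held 0.986%, 7.64%, 1.85%, 2.72% and 1.87% after co-housing, against 0.0366%, 0.192%, 0.758%, 0.280% and 0.877% after re-separation. The groups did not overlap, and the mean share was 3.01% ± 2.66 before and 0.429% ± 0.368 afterwards. The fitted change was -2.51 ± 0.80 on the log2 scale (SE; edgeR adjusted p = 0.0244). Library 12 stood far above its group. Without it the co-housed mean was 1.86%, the log2 fold change -1.94 and the adjusted p 0.0885. The call was also lost without library 21, 22 or 24 and with DESeq2 size factors. The whole family held 5.12% ± 2.67 and 1.34% ± 0.869 (log2 fold change -1.33 ± 0.64; edgeR adjusted p = 0.110). Its named genera Colidextribacter (1.30% and 0.514%) and Oscillibacter (0.670% and 0.233%) had lower means after re-separation and did not pass.

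The remaining listed Clostridia of at least 0.1% in a KO group were not called, and their means were lower after re-separation. Anaerotruncus, a butyrate former, went from 0.494% to 0.158%, and Lachnospiraceae UCG-001 from 1.47% to 0.638%. The family's FCS020 group stood at 0.216% and 0.0674%, ASF356, named for a strain of the altered Schaedler flora, at 0.307% and 0.181%, and Tuzzerella at 0.108% and 0.0481%. Lachnoclostridium held 0.144% and 0.0684%, and unclassified Ruminococcaceae 0.460% and 0.222%. The adjusted p of these genera in edgeR lay between 0.279 and 0.788. Not all Clostridia were lower. The Clostridia vadinBB60 group, on none of the lists, held 0.899% ± 0.625 and 1.44% ± 1.30 (family log2 fold change 1.34 ± 0.89; edgeR adjusted p = 0.222). Clostridia UCG-014, also unlisted, held 0.185% ± 0.346 and 0.0821% ± 0.0178 (-0.24 ± 1.17; edgeR adjusted p = 0.890).

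Several called genera were at the edge of detection. The [Eubacterium] siraeum group, fibre-degrading Ruminococcaceae, had 0 reads in the 5 co-housed KO libraries and held 0.0223%, 0%, 0.0371%, 0.0110% and 0.263% in libraries 21 to 25. Against a floor of 3 counts per library, a mean of 0.0124% over the co-housed libraries, its re-separated mean was at least 5.39-fold higher. Without library 25 the bound was 1.42-fold. Unclassified Rhodospirillales had 0 reads in all co-housed and all weaning libraries of KO and reads in 4 of 5 re-separated KO and 5 of 5 re-separated WT libraries. The bound was 1.87-fold in KO with all libraries (edgeR adjusted p = 0.0244), and 1.16-fold without library 25 (adjusted p = 0.0350). The call was lost without library 12, 13 or 21 (adjusted p up to 0.0574), while as a family the group passed without any one library. Marvinbryantia, an acetate-forming Lachnospiraceae genus, had reads in 3 of 5 re-separated KO libraries at up to 0.0471%. Its bound was 1.75-fold with all libraries (edgeR adjusted p = 0.0421), and 1.24-fold without library 22 (adjusted p = 0.0714). Its call held only without library 23, 24 or 25 and otherwise had an adjusted p of up to 0.0765. [Eubacterium] nodatum group was found in co-housed libraries 13 and 14 only, at 0.0292% and 0.0193%, and was called lower (edgeR adjusted p = 0.0499). It was at least 1.92-fold lower after re-separation, at least 1.44-fold without library 14, and without library 13 the mean did not reach the floor. Its call held only without library 11 or 15, and without 13 the adjusted p was 0.201. These bounds cover counting error only.

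Pseudomonas, an environmental genus also common in reagents, was called lower with the smallest p. It held 0.0982%, 0.0746%, 0.0729%, 0.130% and 0.321% in libraries 11 to 15 and had 0 reads in all 5 re-separated KO libraries. The same pattern was present in WT stool, with reads in 5 of 5 co-housed and 0 of 5 re-separated libraries. The KO mean of 0.139% was at least 27.6-fold above the re-separated floor of 0.00506% (edgeR adjusted p = 0.00115). Without library 15 the mean was at least 18.6-fold above the floor (adjusted p = 0.00285). Pseudomonas made up most of the reads of the reagent list given above.

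The list of mucus or epithelium associated genera holds Mucispirillum, Helicobacter, Akkermansia and Candidatus Arthromitus. Of these 4 genera, all tested, 3 had a log2 fold change above 0 and 1, Akkermansia, was called higher. Of all 71 genera, 35 were above 0 and 10 called higher (14.1%). Mucispirillum, a spiral member of the Deferribacterota, held 0.475%, 4.63%, 9.37%, 5.75% and 5.36% after co-housing, against 0.347%, 0.420%, 1.24%, 1.41% and 2.61% after re-separation. Apart from library 11, the co-housed libraries were higher than the re-separated ones. The log2 fold change was -1.89 ± 0.86 (SE; edgeR adjusted p = 0.122). For its phylum, the exact permutation test gave an adjusted p of 0.0952 with all libraries and 0.0238 without library 11. Helicobacter, a spiral colonizer of the mucus, held 8.58% to 11.6% after co-housing and 6.91% to 22.1% after re-separation (log2 fold change 0.71 ± 0.56; edgeR adjusted p = 0.368). It had 4 variants at each time, and the leading one held 56.1% and 84.5% of its reads. Akkermansia, a mucin degrader, had 0 reads in the co-housed KO libraries and at most 0.0194% in 4 of 5 re-separated libraries. Its mean of 0.00993% lay under the co-housed floor, so no fold is given although the fit called it (edgeR adjusted p = 0.0279). Without library 12, 13 or 21 the adjusted p was 0.0524, 0.0552 and 0.0574. At weaning, within the library set of the co-housed libraries, KO stool held 1.54% with reads in 5 of 5 libraries.

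Among Proteobacteria and Desulfobacterota, 2 of 8 genera were called higher and 1, Pseudomonas, lower, beside 14.1% higher and 5.63% lower of all 71 genera. Their median log2 fold change was -0.30 and turned to 0.07 with DESeq2 size factors. Parasutterella, an asaccharolytic core member of the mouse gut, held 1.69%, 0.0622%, 0.294%, 0.899% and 0.243% after co-housing, against 1.78%, 3.12%, 0.738%, 4.54% and 0.950% after re-separation. Libraries 11 and 14 reached into the re-separated range. The log2 fold change was 2.48 ± 0.86 (SE; edgeR adjusted p = 0.0410), and the call was lost in 10 of 21 alternatives, among them library size only and leaving out library 12, 13, 14, 15, 21, 22 or 24 (adjusted p up to 0.121). Bilophila, a sulphite reducer that uses taurine, held 0.125% ± 0.0843 and 0.0106% ± 0.0117 and did not pass (log2 fold change -3.08 ± 1.30; edgeR adjusted p = 0.0851). Desulfovibrio, a sulphate reducer, held 0.345% ± 0.182 and 0.152% ± 0.0851 (SD, n = 5), and unclassified Desulfovibrionaceae 0.865% and 0.797%.

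Neither wall-less genus passed. Mycoplasma, each time a single variant, held 13.7%, 31.1%, 29.4%, 5.08% and 19.5% after co-housing, against 3.07%, 2.73%, 20.8%, 12.9% and 9.68% after re-separation. The groups overlapped widely (log2 fold change -0.66 ± 0.66; edgeR adjusted p = 0.489). Ureaplasma held 4.77% in library 11, 0.0219% to 0.263% in the other co-housed libraries and 0.396% to 2.50% after re-separation. With all libraries its log2 fold change was 0.52 ± 0.86 (edgeR adjusted p = 0.666), and without library 11 it was 3.22 (adjusted p = 0.0108). Lactobacillus held 0.363% ± 0.423 and 0.166% ± 0.142, and the only library above 0.5% was again library 11, at 1.07%. Erysipelotrichales did not pass either, in 3 genera tested. Their unclassified members held 0.134% and 0.0574%, and Dubosiella, at 0.0107% and 0.0591%, was called by limma-voom alone among 10 processing alternatives.

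Diversity did not pass a test. The Shannon index was 2.58 ± 0.185 after co-housing and 2.42 ± 0.273 after re-separation, and the inverse Simpson index 8.25 ± 1.95 and 6.91 ± 2.53 (SD, n = 5; exact permutation adjusted p = 0.357 for both, over 3 measures). The number of genera expected in 10491 reads was 51.1 ± 5.78 and 58.0 ± 2.28 (exact permutation p = 0.0317, adjusted p = 0.0952). Library 12 had the fewest, 42.9, and library 25 the most, 61.0. Without library 15 the adjusted p was 0.0238. The table holds 5 counts equal to 1, and whether low counts were removed before deposit is not stated in the sources used here.

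WT stool allows the same step to be read in the other genotype and across the same library sets. Of 71 genera, 0 were called higher and 1, Pseudomonas, lower in WT stool (1.41%), with 9 at an unadjusted p under 0.05. DESeq2 called 3 and limma-voom 3. No genus was called for a different change in KO and WT (edgeR interaction, 0%), with 5 at an unadjusted p under 0.05, 1 called by DESeq2 and 0 by limma-voom. For the interaction no family was called by edgeR either, with 2 at an unadjusted p under 0.05 and 0 called by DESeq2 or limma-voom. The edgeR interaction could not call a taxon with 0 reads in both co-housed or both re-separated groups. Its SE was 826 to 8016 for unclassified Rhodospirillales, Pseudomonadaceae, Enterobacteriaceae and Akkermansiaceae. In WT stool 2 of 35 families were called (5.71%). They were unclassified Rhodospirillales, higher (log2 fold change 6.60; edgeR adjusted p = 0.00908), and Pseudomonadaceae, lower (-7.58; edgeR adjusted p = 0.00478). The KO change of unclassified Rhodospirillales as a family was 6.23. Of the 14 genera called in KO stool, 12 had a WT log2 fold change of the same sign, beside 60 of all 71 genera tested. In 13 of the 14 the KO change was the larger in size, but the genera were chosen on the KO change, so nothing is read from that count. Over the 71 genera, KO and WT log2 fold changes had a Pearson r of 0.70, given as a description without a p, since both changes span the same library sets and depth difference and genera are not independent.

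**Figure D4:**
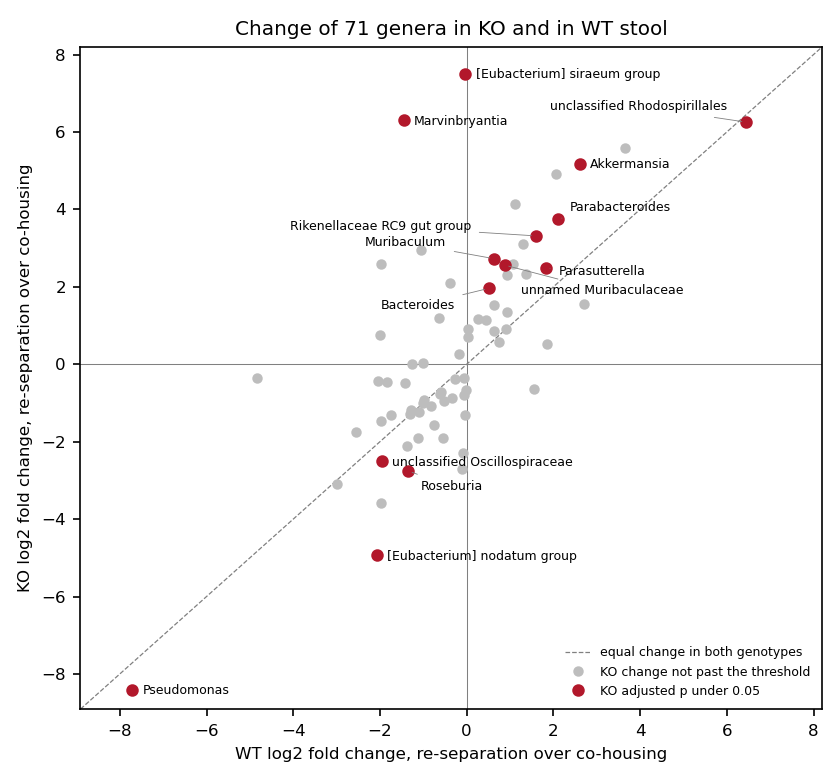
Log2 fold change from co-housing to re-separation of 71 genera in WT (horizontal axis) and KO stool (vertical axis), both from edgeR; red points are the 14 genera called in KO and the dashed line marks equal change. Pseudomonas and unclassified Rhodospirillales lie near the line, while [Eubacterium] siraeum group and Marvinbryantia, each with 0 reads in co-housed KO stool, have WT values of -0.03 and -1.45.

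Unnamed Muribaculaceae held 10.8% ± 8.39 and 18.7% ± 6.23 in WT stool (log2 fold change 0.88; edgeR adjusted p = 0.489), and the KO change exceeded the WT change by 1.68 ± 0.83 (SE; edgeR interaction adjusted p = 0.704). Parabacteroides held 0.295% ± 0.276 and 1.23% ± 0.865 in WT stool, with an interaction of 1.66 ± 1.30. For the [Eubacterium] siraeum group, with 0.431% and 0.349% in WT stool, the interaction adjusted p was 0.234. It passed without the filter on low counts (adjusted p = 0.0179) and with DESeq2. RF39, uncultured Bacilli at 0.0136% and 0.0805% in KO stool, was called for the interaction only without library 15 (edgeR adjusted p = 0.0326).

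Library 19 decided much of the WT result for composition, Bacteroidota and families. The genus calls did not change without it, with Pseudomonas again the only genus called in WT stool. This co-housed WT library held 25.5% unnamed Muribaculaceae, where the mean of the other 4 was 7.19%, and 3.86% of the Lachnospiraceae NK4A136 group, where the others averaged 17.4%. With it, time and library set together accounted for 28.2% of the variation in WT distance (exact permutational p = 0.0714, adjusted p = 0.0714), and without it for 51.5% (p = 0.0159). WT Bacteroidota went from 36.9% to 56.6% with library 19 (exact permutation adjusted p = 0.161) and from 29.6% to 56.6% without it (adjusted p = 0.0476). Without it, Muribaculaceae, Tannerellaceae and Eggerthellaceae were also called higher in WT stool (log2 fold changes 1.71, 3.44 and 5.27; edgeR adjusted p = 0.0415, 0.0474 and 0.0474). The WT composition difference also passed with all libraries on square-root shares (adjusted p = 0.0317) and on Aitchison distance (0.00794). The KO composition difference passed in each of these settings.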

How the data were processed

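Stool DNA of 30 libraries, 5 per genotype and time, was amplified over 16S rRNA region V4 with 25 PCR cycles and read as paired ends of 151 bases, per the labels' protocols. The authors deposited a table of read counts, unnormalized whole numbers, for each variant and library. The deposited name mentions DADA2. Its settings, the taxonomic reference and any filter are not stated in the sources used. R 4.5.1 and limma are listed, with no step, per the submitters' processing notes. The table holds 3697 variants, 2744 of them without reads in these libraries.

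Counts were summed by genus and family name, without Mitochondria. Taxa with at least 10 reads in at least 3 libraries were tested with edgeR 4.0.16 (R 4.3.3). The test used glmQLFit and glmQLFTest with TMMwsp scaling, all 6 groups in the fit, Benjamini-Hochberg adjustment and a threshold of 0.05. Simulated counts with known changes were also run through the fit. They held no library-set effect, so they do not show how the fit behaves with one. Standard errors are the log2 fold change divided by the root of F. Exact permutation tests, two-sided, served for single values, and communities by Bray-Curtis distance. DESeq2 1.42.0 and limma-voom (limma 3.58.1) were alternatives. Figures and sums used Python 3.11.15. A count of 0 allows up to 3 counts, a floor for counting error only, since amplified reads that carry no molecular identifier cannot be counted as separate molecules. Replicate pairs differed beyond sampling noise, with none counted as 1 sample. Library numbers are not shared between groups, so nothing pairs them.

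Named are the called genera and families, the 10 leading genera and listed genera of at least 0.1% in a KO group. Other names were chosen after their values were seen. The members and lists were chosen with earlier results of these data known.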

Additional observations from a re-analysis of the deposited data

Results flagged for a closer look

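In 48 groups of 5 KO libraries checked for a library far from the rest, 4 stood out, where chance flags about 1 in 20 groups. Bacteroides held 2.97% in co-housed library 11, with the next library at 1.02%. Unclassified Oscillospiraceae held 7.64% in co-housed library 12, with the next at 2.72%. Pseudomonas held 0.321% in co-housed library 15, with the next at 0.130%. The [Eubacterium] siraeum group held 0.263% in re-separated library 25, with the next at 0.0371%. The values of each result without these libraries are given in the report.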

How the results depend on the processing

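No call changed direction in any alternative. Of the 14 genera called, 5 were called in each alternative that tested them: unnamed Muribaculaceae, Parabacteroides, the Rikenellaceae RC9 gut group, the [Eubacterium] siraeum group and Pseudomonas. Genera higher in KO stool numbered 5 with library size only, 5 after rarefying and 4 to 11 with a library left out. Genera lower numbered 2 with TMM, 1 with DESeq2 size factors, 1 over taxa in both library sets and 1 to 4 with a library left out. WT calls numbered 2 with DESeq2 size factors, 0 over taxa in both sets, 3 with DESeq2, 3 with limma-voom and 1 with any library left out. Interaction calls of genera numbered 1 without the filter, 1 with DESeq2 and 0 to 1 with a library left out, and those of families 0 to 1 with a library left out. Families higher in KO numbered 3 with DESeq2 size factors, 3 over taxa in both sets, 11 with limma-voom, 3 after rarefying and 3 to 8 with a library left out. Families lower numbered 3 with library size only, 3 with DESeq2 size factors, 2 without the filter, 0 over taxa in both sets, 4 with only the KO groups, 2 with only 4 groups, 6 with DESeq2, 2 with limma-voom, 6 after rarefying and 1 with any library left out. WT families numbered 1 over taxa in both sets, 5 with only 4 groups, 1 after rarefying and 2 to 5 with a library left out. Dropping taxa found in 1 set removes Pseudomonas by construction; the cause of the other shifts was not tested. The change in expected genera was 4.86 to 8.68, and the phyla called 0 to 3, with a library left out. R2 stayed past the threshold, at 31.9% to 59.8%. No paired analysis was possible because the groups share no library number. Depth limits genera under about 0.0124% after co-housing.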
